A study of Mus musculus with 6 samples.

Results

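In all, 10 genes were examined: the interferon-induced pair Ifi44 and Ifi44l, and the guanylate-binding protein genes Gbp2b, Gbp2, Gbp3, Gbp5, Gbp7, Gbp4, Gbp6 and Gbp9. They were taken by symbol from the authors' deposited table, and all 10 were found among its 20138 genes. The set was chosen by the log2 folds and adjusted p-values of this comparison, so its folds and p-values are given as a description. The table compares whole kidneys of 3 Pkd2-KO mice with those of 3 Pkd2-miR-214-KO mice at postnatal day 35. Pkd2-KO stands for Pkhd1Cre; Pkd2 F/F, a floxed Pkd2 gene (polycystin-2, the channel lost in cystic kidney disease) with Cre recombinase under the Pkhd1 promoter, which acts mainly in kidney tubules, so other kidney cells keep Pkd2. Pkd2-miR-214-KO carries the same alleles and miR-214null in addition, and no group with intact Pkd2 was used here. Strain, sex and litter are not given in the labels. Values per animal and sequencing depth were not analysed here, so each value below is a fit over 3 animals per genotype with an approximate standard error (SE), computed as the size of the fold over the square root of its likelihood ratio. Folds are given as log2 folds (log2 ratios), and positive ones mean higher in Pkd2-miR-214-KO, a direction read from the deleted Mir214 itself (-7.62 ± 1.08 in the authors' deposited table).

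Guanylate-binding proteins are large GTPases of the dynamin superfamily that are induced by interferon-gamma. They assemble on vacuoles and membranes of intracellular bacteria and parasites, and help to expose bacterial endotoxin to the caspase-11 inflammasome. In the mouse their genes form clusters on chromosomes 3 and 5. Gbp2b encodes the protein long called mouse Gbp1, and like Gbp2 and Gbp5 it ends in a lipid attachment signal that anchors the protein in membranes. Ifi44 and Ifi44l lie side by side and are induced by type I interferon in many tissues. Interferon acts on such promoters through the interferon-stimulated response element (ISRE), and interferon-gamma also through the gamma-activated site (GAS).

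The sequences below are shown because each pair sets a gene that rose next to its neighbour that did not pass, and because miR-214 is what the genotypes differ in. They were taken from RefSeq on GRCm38.p6, the assembly of mm10. The main product of the deleted hairpin, with its seed (bases 2 to 8) in capitals, is
mmu-miR-214-3p: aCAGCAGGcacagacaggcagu
Promoter windows run from 250 bases before to 50 bases after the annotated start, in the direction of the gene. Capitals mark matches on either strand to the ISRE letters searched, which are GAAA, any 2 bases (NN) and GAAA again, or to the first 9 of these letters, GAAANNGAA. The windows are chr3:151762842-151763141 (minus strand) for Ifi44l, chr3:151749861-151750160 (minus strand) for Ifi44, chr3:142594597-142594896 (plus strand) for Gbp2b and chr3:142620413-142620712 (plus strand) for Gbp2.
Ifi44l: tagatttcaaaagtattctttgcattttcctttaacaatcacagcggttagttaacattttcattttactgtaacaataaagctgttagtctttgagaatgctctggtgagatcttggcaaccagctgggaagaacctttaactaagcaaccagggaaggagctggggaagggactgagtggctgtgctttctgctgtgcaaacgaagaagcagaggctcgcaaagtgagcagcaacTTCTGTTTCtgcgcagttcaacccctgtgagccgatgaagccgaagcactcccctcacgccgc
Ifi44: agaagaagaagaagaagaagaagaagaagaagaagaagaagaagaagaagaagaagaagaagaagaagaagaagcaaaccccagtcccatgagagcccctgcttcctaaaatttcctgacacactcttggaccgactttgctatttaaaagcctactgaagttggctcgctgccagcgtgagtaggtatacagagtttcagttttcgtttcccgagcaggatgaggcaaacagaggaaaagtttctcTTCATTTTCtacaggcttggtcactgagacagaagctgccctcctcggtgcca
Gbp2b: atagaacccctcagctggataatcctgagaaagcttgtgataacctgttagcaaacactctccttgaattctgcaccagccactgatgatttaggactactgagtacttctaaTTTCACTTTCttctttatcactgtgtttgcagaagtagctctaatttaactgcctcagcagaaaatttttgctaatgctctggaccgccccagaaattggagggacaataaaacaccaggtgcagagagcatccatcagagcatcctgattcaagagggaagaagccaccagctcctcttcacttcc
Gbp2: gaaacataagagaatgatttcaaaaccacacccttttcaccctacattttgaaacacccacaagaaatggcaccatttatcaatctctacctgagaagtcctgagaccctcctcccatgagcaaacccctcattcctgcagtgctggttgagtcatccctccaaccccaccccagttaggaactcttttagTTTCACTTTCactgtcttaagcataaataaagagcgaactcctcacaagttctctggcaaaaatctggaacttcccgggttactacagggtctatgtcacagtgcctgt

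In this set 2 genes rose, Ifi44l and Gbp2b, and no member fell. Both calls rest on an adjusted p under 0.05 in the authors' deposited table (edgeR likelihood ratio test, Benjamini-Hochberg adjustment), which 0.104% of all genes reached as higher and 0.124% in either direction. Without adjustment 3 of the 10 members had a p under 0.05, all of them higher, against 4.82% of all genes in either direction and 3.1% as higher in the authors' deposited table. The contrast chose the members, so nothing is read from these counts. The median log2 fold of the 10 members was -0.05 and that of all genes 0 in the authors' deposited table.

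**Figure D1:**
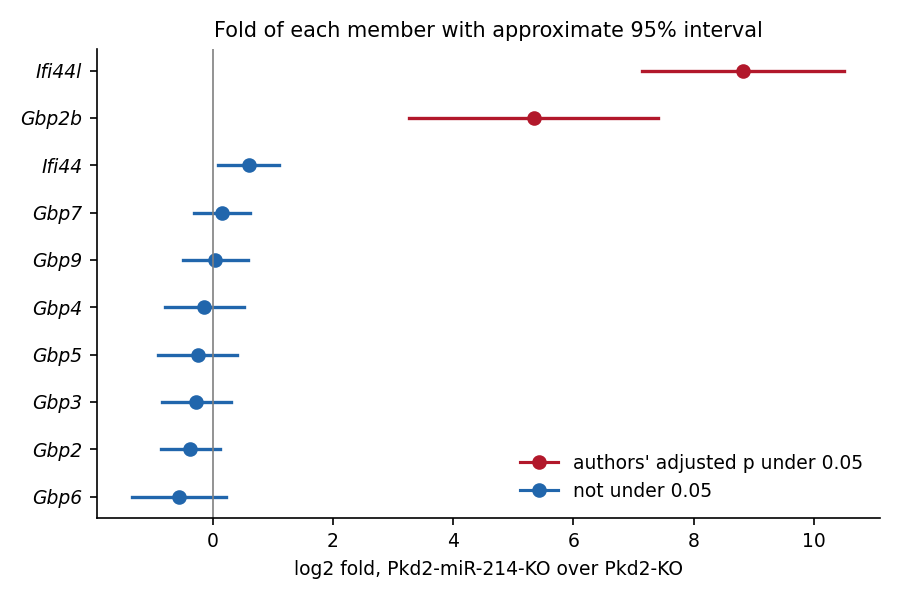
Log2 fold of each of the 10 genes (horizontal axis, Pkd2-miR-214-KO over Pkd2-KO) with its approximate 95% interval as a bar, red where the authors' adjusted p is under 0.05. Ifi44l (8.82) and Gbp2b (5.34) stand apart from the other 8 genes, which lie between -0.56 and 0.60.

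Of the Ifi44 pair, Ifi44l rose and Ifi44 did not pass the threshold. Ifi44l, whose product belongs to the interferon-induced IFI44 family, had a log2 ratio of 8.82 ± 0.86 (approximate 95% interval 7.14 to 10.50, adjusted p = 1.63e-20, edgeR) in the authors' deposited table, the smallest p of its 20138 genes. Its mean over both genotypes was 8.85 CPM (reads of the gene scaled to a common library size), from which the fold implies about 17.7 CPM in Pkd2-miR-214-KO and 0.039 CPM in Pkd2-KO. The latter lies under the lowest mean of any gene in the authors' deposited table, 0.0549 CPM, so Ifi44l was at or near the floor in Pkd2-KO, and its fitted fold depends on the prior count and is no bound. Ifi44, which encodes its relative, had a log2 ratio of 0.60 ± 0.26 (interval 0.09 to 1.10) in the authors' deposited table. Its p was 0.0199 before and 0.770 after adjustment in edgeR, so it did not pass. Implied levels of Ifi44 were 34.7 CPM in Pkd2-KO and 52.5 CPM in Pkd2-miR-214-KO. The intervals of the 2 folds do not overlap, and the difference between them was not tested.

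Among the 5 guanylate-binding protein genes on chromosome 3, Gbp2b alone passed. Its log2 fold was 5.34 ± 1.06 (interval 3.26 to 7.41, adjusted p = 0.000931, edgeR) in the authors' deposited table, a 40.4-fold difference with an interval of 9.60 to 169.9. The fold implies about 0.368 CPM in Pkd2-KO and 14.8 CPM in Pkd2-miR-214-KO. Gbp2, whose product restricts Toxoplasma, begins 1.42 kb past the end of Gbp2b and had a log2 ratio of -0.37 ± 0.25 (interval -0.86 to 0.11) in the authors' deposited table. That is the opposite sign to its neighbour, without passing. Gbp3 had a log2 ratio of -0.28 ± 0.29 and Gbp5, whose product promotes assembly of the NLRP3 inflammasome, of -0.25 ± 0.34 in the authors' deposited table. Gbp7, which encodes a regulator of the phagocyte oxidase, had a log2 ratio of 0.15 ± 0.24 in the authors' deposited table. Each of these 4 intervals includes 0, and together they reach from -0.92 to 0.61.

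On chromosome 5 none of the 3 members passed. Log2 folds were 0.04 ± 0.28 for Gbp9, -0.14 ± 0.34 for Gbp4 and -0.56 ± 0.40 for Gbp6 in the authors' deposited table. The widest of the intervals, that of Gbp6, runs from -1.34 to 0.22, so a fall to 0.395 of the level in Pkd2-KO lies inside it. The other 3 genes of the family on this chromosome did not pass either. Gbp8 had a log2 ratio of 0.11 ± 0.40, Gbp10 of -1.24 ± 0.68 and the polymorphic pseudogene Gbp11 of 0.13 ± 0.87 in the authors' deposited table, the last 2 at a mean log2 CPM of -1.83 and -2.45.

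**Figure D2:**
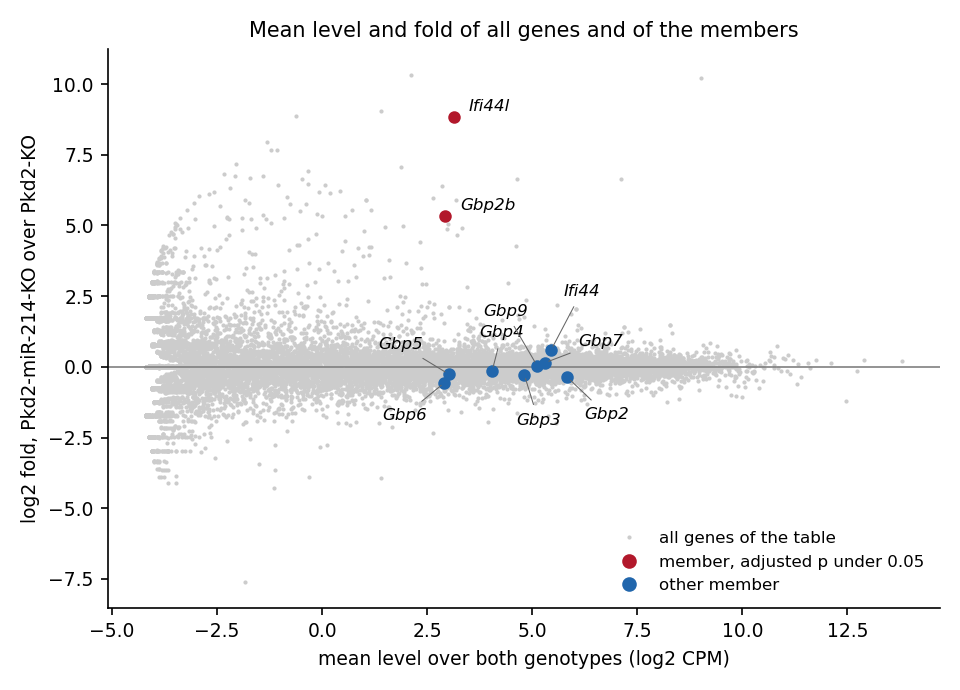
Mean level over both genotypes (log2 CPM, horizontal) against log2 fold (vertical) for all 20138 genes in grey, with the 10 members in colour. Ifi44l and Gbp2b sit at a mean log2 CPM of 3.15 and 2.93, beside Gbp5 (3.01) and Gbp6 (2.91), whose log2 folds are -0.25 and -0.56.

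The errors of Ifi44l and Gbp2b were wide for their level. Among the 500 genes nearest in mean log2 CPM, the approximate SE of Ifi44l lay at the 98.6 percentile and that of Gbp2b at the 99.4 percentile, and these similar genes had median SEs of 0.31 and 0.33. For the other 8 members the percentile ran from 65.6 (Gbp5) to 89.6 (Gbp3). The SE is computed from the fold and its likelihood ratio. Ifi44l and Gbp2b had low implied levels in Pkd2-KO, so their percentiles do not measure the spread between animals. With no values per animal, it was not tested whether all 3 Pkd2-miR-214-KO kidneys carried these 2 transcripts.

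Levels of different genes were compared per kilobase of annotated exon. The order is given for the implied level in each genotype, without an error, since the spread between animals was not analysed here. In Pkd2-KO the highest implied level was that of Gbp2, with 25.6 CPM per kb. Gbp3 (9.41), Gbp7 (6.67), Gbp9 (6.58) and Ifi44 (5.67 CPM per kb) followed. Gbp4 (2.31), Gbp6 and Gbp5 (1.32 CPM per kb) came next, and Gbp2b (0.130) and Ifi44l (0.0284 CPM per kb) closed the order. In Pkd2-miR-214-KO, Gbp2 again had the highest implied level (19.8 CPM per kb), and Ifi44l came directly after it with 12.8 CPM per kb. With the longest transcript as length that place went to Ifi44, at 12.9 CPM per kb. Gbp2b, at 5.26 CPM per kb, lay between Gbp9 (6.79) and Gbp4 (2.10 CPM per kb). The 2 genes that rose thus moved from the foot of the order into the range of their relatives. Summed over the 8 guanylate-binding protein members, the implied level was 202.1 CPM in Pkd2-KO and 195.7 CPM in Pkd2-miR-214-KO. Such sums add genes of different length and carry no error, and a difference between them was not tested. Without Gbp2b the sums were 201.7 and 180.9 CPM. For the Ifi44 pair the sums were 34.8 and 70.2 CPM. In whole kidney, fewer cells of a type and less RNA per cell cannot be told apart.

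Close relatives can share reads, and that was measured on the annotated transcripts. Of the 2774 distinct 50-base windows in the transcript of Gbp2b, 51 (1.84%) were also found in another gene, in each case Gbp2. No window of Ifi44 or Ifi44l was found in another gene. Coding sequences of Gbp2b and Gbp2 were 82.5% identical over 1770 aligned bases, and those of Ifi44 and Ifi44l 77.9% over 471. Between 1.44% (Gbp5) and 12.7% (Gbp7) of windows were shared for the other members except Gbp6. Gbp6 shared 70.7% of its windows with other genes, 65.0% with the gene model Gm43302 and 45.9% with Gbp10, to which its coding sequence was 98.4% identical. The folds of Gbp6 and Gbp10 are therefore uncertain wherever reads could be assigned to either or to Gm43302. The gene spans of Gbp4, Gbp8 and Gbp9, introns included, overlap on the same strand, those of Gbp4 and Gbp9 over 23773 bases. Of their transcript windows, smaller parts than for Gbp6 were shared with other genes: 7.70% for Gbp4, 8.05% for Gbp9 and 18.1% for Gbp8. Their folds are uncertain for reads from those parts, and how reads in the overlap were assigned is not known. Among the 28 pairs of guanylate-binding protein members, identity ran from 65.8% to 90.9%.

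**Figure D3:**
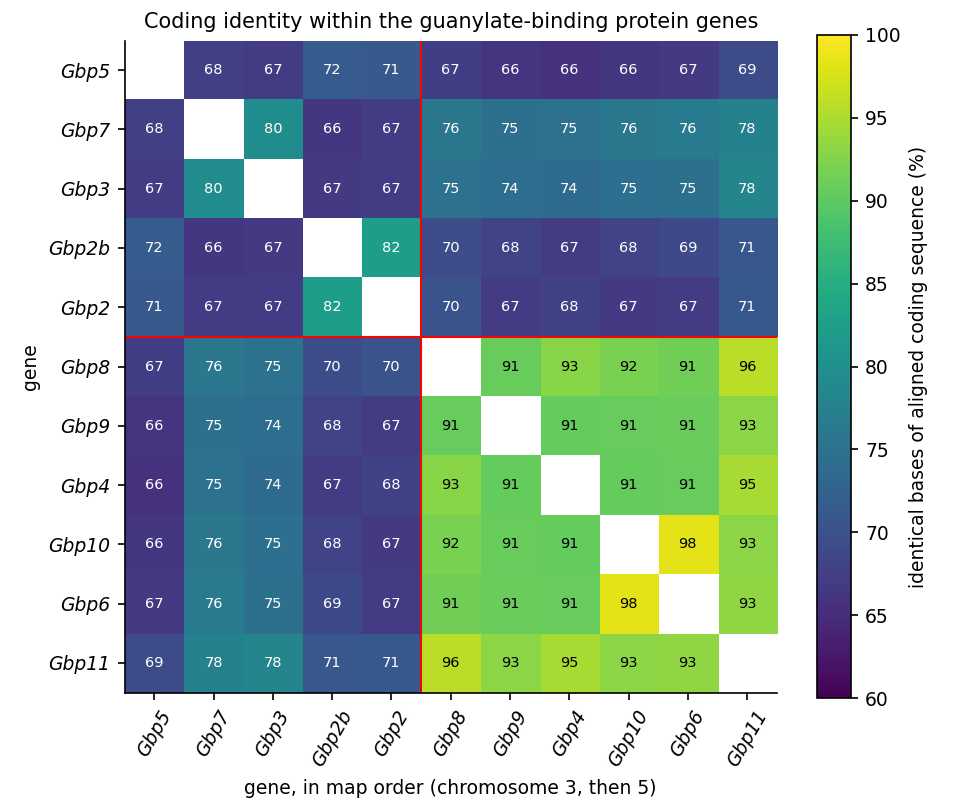
Percent identical bases in aligned coding sequence for each pair of the 11 guanylate-binding protein genes, in map order on both axes, with red lines between the chromosome 3 and chromosome 5 genes. The chromosome 5 genes are over 90% identical to each other, while Gbp2b is closest to Gbp2 (82.5%).

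The promoters of both genes that rose hold interferon letters, and so do those of members that did not pass. RefSeq windows matched 7 of the 10 members, Ifi44, Ifi44l, Gbp2b, Gbp2, Gbp3, Gbp5 and Gbp7, while Gbp4, Gbp6 and Gbp9 were not searched here. The 10-letter ISRE form was found in the windows of 5 of these 7 genes, all guanylate-binding protein genes, against 3.44% of all 32851 promoter windows of the same length. Gbp2b and Gbp2 carry the same 10 letters, TTTCACTTTC as read along the gene, 137 and 59 bases before the start. In Gbp3 2 matches overlap each other. The 9-letter form GAAANNGAA, which every longer match contains, was found in 7 of 7 genes and in 8.56% of all windows, and in Ifi44l and Ifi44 it lies 13 and 3 bases before the start. TTCNNNGAA, the GAS letters, was found in Gbp5 and Gbp7 and in 8.30% of all windows. A match is a description of the letters in the reference strain and shows no binding. The 7-base complement of the miR-214-3p seed occurred in the longest annotated 3' UTR of 1 of the 10 members, Gbp7, at 1 place, against 19.3% of 21028 genes. The same search for miR-214-5p found it in 0 of 10 members and in 8.64% of genes.

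No other gene within 1 Mb of the members had an adjusted p under 0.05 in the authors' deposited table (edgeR). Positions are from GENCODE M21 on mm10. Ifi44l spans 151758737 to 151762892 on chromosome 3 and is annotated with 1 transcript of 1376 bases in 3 exons, whose coding part begins without a start codon. Ifi44 lies 8.78 kb to its left and the prostaglandin F receptor gene Ptgfr (0.20 ± 0.26 in the authors' deposited table) 33.6 kb to its right. Within 1 Mb of the pair 0 of 11 other genes had an adjusted p under 0.05 and 2 had an unadjusted p under 0.05 in edgeR, the kinase gene Ak5 (-0.61 ± 0.31) and the antisense RNA AI115009 (-0.99 ± 0.50) in the authors' deposited table. Next by p came Gipc2 (-0.24 ± 0.21), while the nearest table gene on the left, Mir3963, was listed with a fold of 0 in the authors' deposited table. Gbp2b spans 142594847 to 142619179 on the same chromosome. The 6 neighbours within 1 Mb of the chromosome 3 cluster had log2 folds between -0.10 and 0.16 in the authors' deposited table, and none had an unadjusted p under 0.05 in edgeR. Nearest to the cluster lie Pdlim5 (-0.10 ± 0.21) and Gtf2b (0.13 ± 0.21) in the authors' deposited table, which encode a cytoskeletal adaptor and a general transcription factor. Bmpr1b (0.16 ± 0.24) and Pkn2 (0.13 ± 0.20) had the smallest p-values beside Gtf2b in the authors' deposited table. The clusters are 9.09 Mb apart, and of the 31 genes between them 0 had an adjusted p under 0.05 and 2 an unadjusted p under 0.05 in edgeR. The largest fold among these, chosen after its value was seen, was that of the liver urate oxidase gene Uox (3.13 ± 1.34, adjusted p = 0.770) in the authors' deposited table. Over all of chromosome 3, 3 of 954 genes had an adjusted p under 0.05 in the authors' deposited table, Ifi44l, Gbp2b and the chitinase-like gene Chil3. Of the chromosome 5 members Gbp9 lies nearest to Pkd2, the floxed gene of both genotypes, and begins 572 kb past it. Pkd2 itself had a fold of -0.11 ± 0.23 in the authors' deposited table. Of the 17 neighbours of these members within 1 Mb, 0 had an adjusted and 0 an unadjusted p under 0.05 in the authors' deposited table (edgeR). Besides Gbp10 the smallest p-values there were those of Ibsp (1.72 ± 1.49, at a mean log2 CPM of -4.12) and Lrrc8c (-0.26 ± 0.28), and nearest on the left was Abcg3 (0.24 ± 0.47), in the authors' deposited table.

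**Figure D4:**
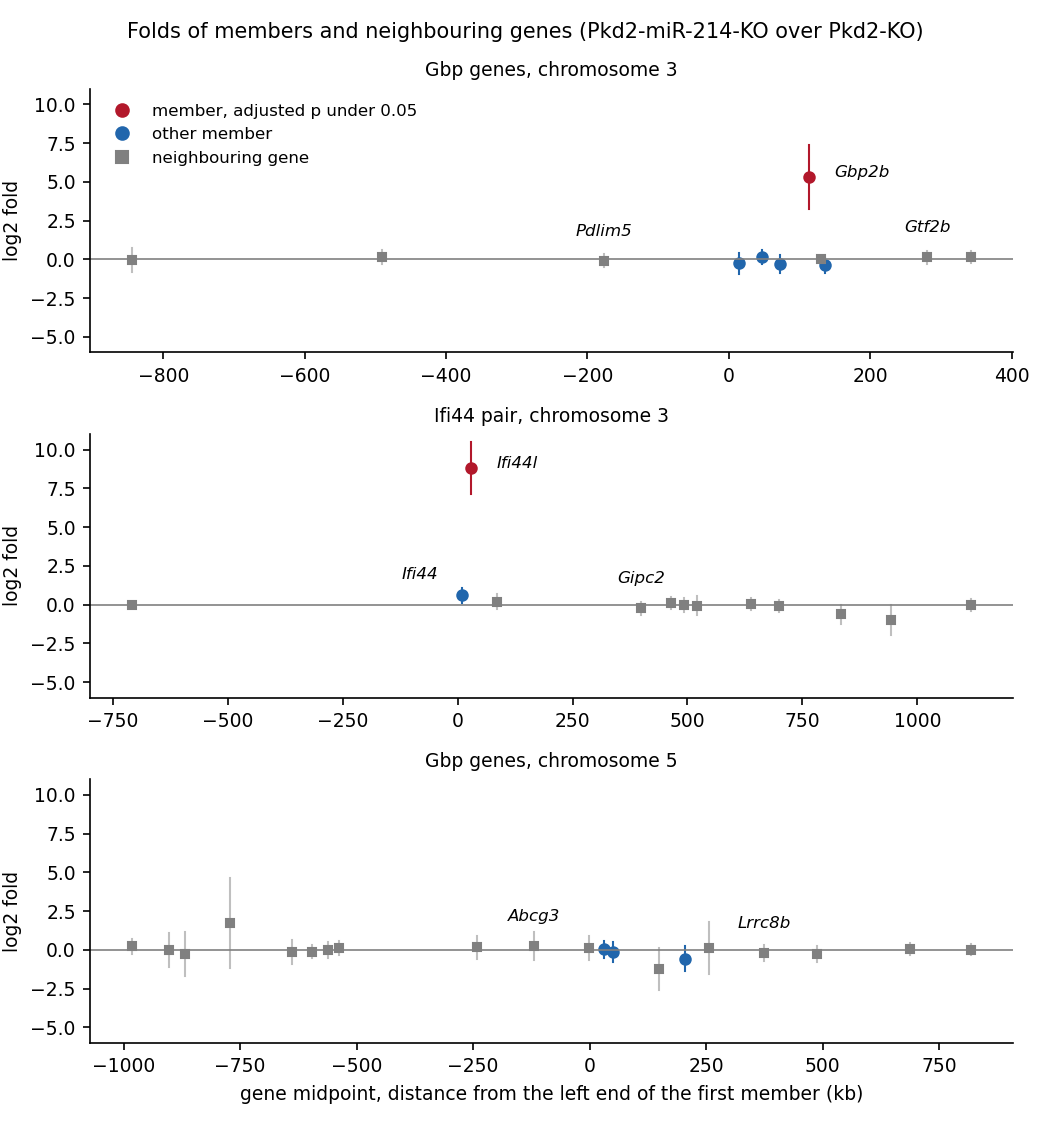
Log2 folds (vertical, with approximate 95% intervals) of members and of genes within 1 Mb, by distance of the gene's midpoint from the left end of the first member in kb (horizontal), for 3 loci. Ifi44l (8.82) and Gbp2b (5.34) lie above all neighbours drawn, of which the lowest near Ifi44l is AI115009 (-0.99); on the left of the Ifi44 pair the 1 neighbour is Mir3963, listed with a fold of 0.

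The other genes of the interferon pathway were taken from lists chosen with earlier results of these data known. None of the lists had a gene past the threshold in either direction in the authors' deposited table, where 0.124% of all genes were. The ligand gene Ifng was scarce, with a mean log2 CPM of -3.23 and a log2 ratio of -1.22 ± 0.99 in the authors' deposited table. The interferon-gamma ligand, receptor and signalling list of 10 genes had 5 positive and 5 negative folds with a median of 0.02, among them 0.41 ± 0.22 for the receptor gene Ifngr1 and -0.76 ± 0.53 for the inhibitor gene Socs1, in the authors' deposited table. Immunity-related GTPases act with guanylate-binding proteins on pathogen vacuoles. Of 14 immunity-related and other interferon-inducible GTPase genes, Mx1 and Mx2 among them, 14 had negative folds, against 48.2% of all genes. Their median was -0.46 in the authors' deposited table. Those with the smallest p were Tgtp2 (-1.15 ± 0.51), Tgtp1 (-0.97 ± 0.44), Iigp1 (-0.60 ± 0.34) and Igtp (-0.48 ± 0.28) in the authors' deposited table, and Tgtp1 and Tgtp2 are near-identical copies whose reads can be split. Another 14 genes induced by interferon-gamma had a median of -0.46, with 11 negative folds, in the authors' deposited table. Their smallest p-values belonged to the chemokine genes Cxcl11 (-1.17 ± 0.50), Cxcl10 (-0.81 ± 0.39) and Cxcl9 (-1.53 ± 0.78) and to Ciita (-0.87 ± 0.42), the MHC class II activator, in the authors' deposited table. Unadjusted p-values under 0.05 among lower genes numbered 2 of 14 GTPase genes and 3 of 14 induced genes, against 1.71% of all genes in the authors' deposited table.

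Genes of the type I interferon pathway, to which the Ifi44 pair belongs, lay near 0. The receptor and signalling list had a median of -0.11 over 9 genes, with -0.27 ± 0.30 for Irf7, -0.21 ± 0.26 for Stat2, -0.19 ± 0.24 for Irf9 and -0.17 ± 0.21 for Tyk2 in the authors' deposited table. Of 31 further stimulated genes, 21 had negative and 10 positive folds, with a median of -0.11 and a range of -0.63 to 0.39, in the authors' deposited table. Their smallest p-values were those of the virus-tethering gene Bst2 (-0.63 ± 0.33), Ifitm3 (-0.39 ± 0.28), Zbp1 (-0.55 ± 0.42) and Trim30a (0.29 ± 0.25) in the authors' deposited table. The highest fold of these 31 genes, 0.39, lies under that of Ifi44 (0.60) and far under that of Ifi44l. Ifi44 and Ifi44l were chosen by their folds in this comparison, so nothing is read from this order. Inflammasome and autophagy genes, whose products work with guanylate-binding proteins, had positive folds in 15 of 18 cases, against 49.8% of all genes, with a median of 0.18 in the authors' deposited table. Named by the smallest p they were Lgals3 (0.40 ± 0.25), Gabarapl1 (0.40 ± 0.34), Casp1 (0.41 ± 0.42) and Atg5 (0.21 ± 0.22) in the authors' deposited table. The negative folds were those of the inflammasome genes Gsdmd (-0.32 ± 0.34), Nlrp3 (-0.28 ± 0.37) and Il1b (-0.09 ± 0.38) in the authors' deposited table.

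**Figure D5:**
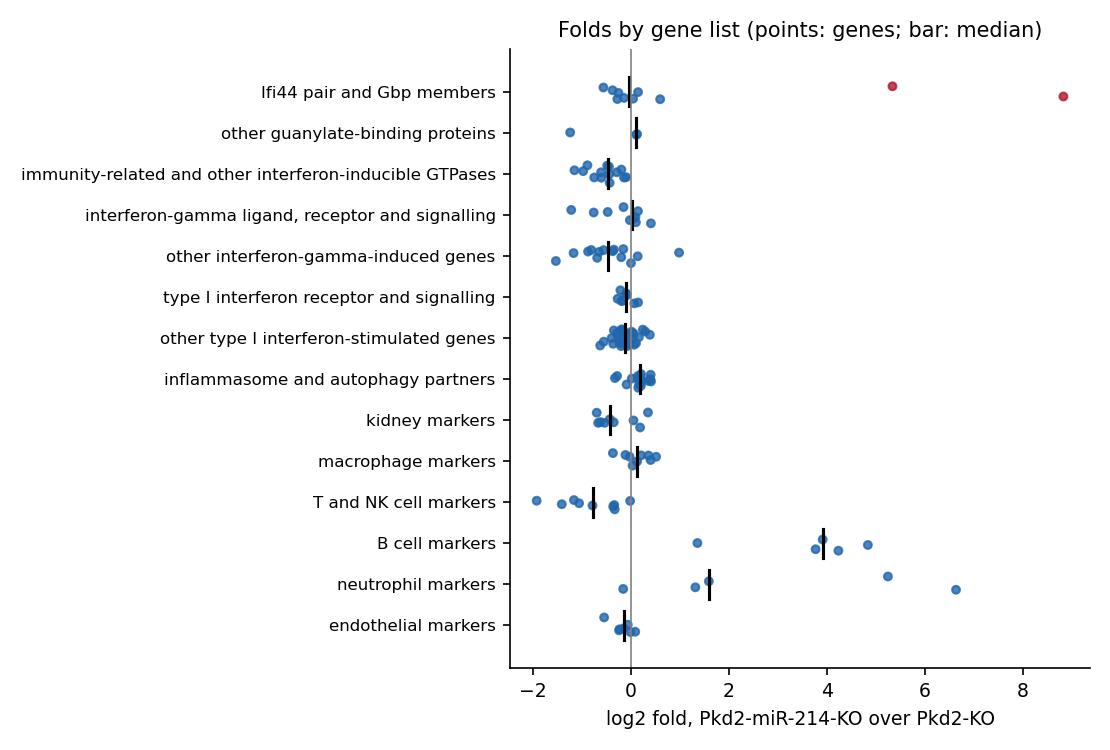
Log2 folds (horizontal) of the 10 members and of the genes in each list (rows), each point 1 gene and each bar the median of its list, red where the authors' adjusted p is under 0.05. The 2 red points are Ifi44l and Gbp2b, while all 14 related GTPase genes lie left of 0 and the B cell markers right of it.

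No marker of kidney, immune or endothelial cells on the lists passed the threshold in the authors' deposited table (edgeR), and their values are given beside the members. The 9 kidney markers were present at mean log2 CPM of 4.74 to 11.4, with 6 negative folds, a median of -0.43 and sums of 9646 and 6906 CPM in Pkd2-KO and Pkd2-miR-214-KO. Smallest in p were Nphs1 (-0.43 ± 0.26), Slc12a1 (-0.70 ± 0.43), Slc12a3 (-0.67 ± 0.45) and Slc34a1 (-0.62 ± 0.49) in the authors' deposited table. B cell markers had positive folds in 5 of 5 genes, against 49.8% of all genes, in the authors' deposited table. Their summed implied level was 3.57 CPM in Pkd2-KO and 20.9 CPM in Pkd2-miR-214-KO. None passed, with adjusted p of 0.113 for Ms4a1 (4.23 ± 1.14), 0.202 for Cd79a (3.77 ± 1.11) and 0.291 for Pax5 (4.83 ± 1.57) in the authors' deposited table (edgeR). Neutrophil markers had positive folds in 4 of 5 genes, against 49.8% of all genes, with sums of 12.3 and 20.2 CPM. Their folds were 6.63 ± 1.75 for Ngp, 5.24 ± 1.75 for Camp, 1.59 ± 0.60 for S100a8 and 1.32 ± 0.58 for S100a9 in the authors' deposited table. Csf3r, with the highest mean log2 CPM of the 5 genes (2.96), had a log2 ratio of -0.16 ± 0.32. Ngp and Camp lay at a mean log2 CPM of -0.48 and -1.69. T and NK cell markers had negative folds in 9 of 9 genes, against 48.2% of all genes, with sums of 23.1 and 17.0 CPM. Smallest in p were Gzmb (-1.92 ± 0.81), Nkg7 (-1.16 ± 0.65), Tbx21 (-1.41 ± 0.81) and Cd8a (-0.78 ± 0.59) in the authors' deposited table. Gzmb and Tbx21 lay at a mean log2 CPM of -0.72 and -0.70. On the same list Cd3e had a log2 ratio of -0.34 ± 0.64, Cd3d of -0.36 ± 0.74 and Cd4 of -0.01 ± 0.45. Macrophage sums were 626.4 and 682.5 CPM over 9 genes, with 0.51 ± 0.24 for Mrc1, 0.36 ± 0.26 for Cd14, -0.37 ± 0.27 for Emr1 and 0.40 ± 0.35 for Cd68 in the authors' deposited table. Endothelial sums were 675.0 and 615.2 CPM over 7 genes, with -0.54 ± 0.22 for Tie1, -0.24 ± 0.23 for Tek, -0.23 ± 0.31 for Cdh5 and -0.14 ± 0.25 for Kdr in the authors' deposited table. Emr1 is the older symbol of Adgre1. Of the defining markers, Trac and Ly6g were not analysed here. The part of these cells in the folds of Ifi44l and Gbp2b was not tested. Xist, the RNA of the inactive X chromosome, passed, with a log2 ratio of 10.21 ± 2.36 (adjusted p = 0.0168, edgeR) in the authors' deposited table. Its fold implies about 0.880 CPM in Pkd2-KO and 1040 CPM in Pkd2-miR-214-KO. None of 4 Y-linked genes passed, with log2 folds between -0.66 (Kdm5d) and -0.14 (Eif2s3y) and SEs of 1.40 to 1.66 in the authors' deposited table. These 5 genes were chosen after their values were seen, and the part of sex in the members' folds was not tested.

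Genes most like the 2 that rose were sought by distance in the plane of log2 fold and mean log2 CPM, over this 1 comparison. Nearest to Gbp2b were Pzp (5.04 ± 1.71), Mat1a (4.89 ± 1.59) and Bhmt (4.90 ± 1.16) in the authors' deposited table, at distances of 0.31, 0.45 and 0.58. All 3 are abundant in liver, and of them Bhmt passed (adjusted p = 0.0235, edgeR). Ifi44l had no near match. Its closest genes were Ugt2b38 (9.05 ± 2.32), Glycam1 (10.33 ± 2.50) and Ces1c (7.06 ± 2.32) in the authors' deposited table, at distances of 1.77, 1.83 and 2.17. The SEs of these 3 genes are each more than that of Ifi44l (0.86), and Glycam1 passed (adjusted p = 0.0337, edgeR).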

How the data were processed

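RNA sequencing libraries of whole kidney from 3 Pkd2-KO and 3 Pkd2-miR-214-KO mice were compared by the authors. TopHat2 2.0.12, edgeR and mm10 are named in the submitters' processing notes, without settings, while for read counting, use of strand, filters and normalization the settings were not given in the sources used here. The labels name a stranded total RNA kit and the series text polyA mRNA, which leaves the selection step unsettled. Per the file headers, the authors' deposited table holds 1 comparison: log2 fold, mean log2 CPM (reads per gene scaled to library size), a likelihood ratio score, the p-value and its adjusted form for 20138 genes. Depth is unknown, and p-values set each fold against the spread between these animals as the authors' model sees it, without measuring that spread. The members and gene lists were chosen with earlier results of these data known.

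No new test was made. The chi-square tail of the likelihood ratio gave the deposited p-values within 6.25e-15, and Benjamini-Hochberg adjustment the deposited adjusted p-values within 5.10e-14. Intervals are 1.96 SE on either side. Implied CPM per genotype takes the deposited mean as the mean of both genotypes. Symbols of 19024 genes (94.5%) matched 1 position in GENCODE M21, whose transcripts gave lengths, shared windows and coding sequences. Coding sequences were aligned globally with Biopython 1.88. The adjustment routines were tested on simulated data and the motif search on short fixed sequences. The SE routine was checked only on simulated scores built by the same formula. That check could not fail and does not show how accurate the SE is near the floor. Computation used scipy 1.17.1, numpy 2.4.6 and pandas 2.3.3 under Python 3.11.15, and plots matplotlib 3.10.9. Named genes were the members, the targeted loci, up to 4 genes of smallest p per list, the nearest neighbours and 3 of smallest p per locus, and the 3 genes nearest in fold and level to each called member. Xist, the Y-linked genes and Uox were singled out after their values were seen, as were Csf3r, Cd3e, Cd3d, Cd4, Mx1, Mx2, Gsdmd, Nlrp3 and Il1b. The table holds no counts per sample, so the authors' test is used as deposited. Some genes that this rule names are not reported here.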

Additional observations from a re-analysis of the deposited data

How the results depend on the processing

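The 2 called members, Ifi44l and Gbp2b, stayed 2 with an adjusted p under 0.1, with Holm adjustment and with only the 14520 genes of mean log2 CPM of at least 0. The count over all genes was 25, 28 with an adjusted p under 0.1, 19 among the better expressed genes and 14 with Holm adjustment, a stricter rule by construction. Centring the folds on the median of all genes (0) or of genes with a mean log2 CPM of at least 5 (0.01) shifted the folds by less than the smallest of them, so no sign could change. Without genes of mean log2 CPM under 0, the list medians went from -0.78 to -0.36 for T and NK cell markers and from 0.02 to 0.06 for interferon-gamma signalling. With the longest transcript as length, the mean level per kb was over 1.5 times higher for 3 of 10 members (Ifi44, Gbp5 and Gbp4). In Pkd2-miR-214-KO Ifi44 (12.9 CPM per kb) then came before Ifi44l (12.8), and in Pkd2-KO Ifi44 (8.55) before Gbp7 (6.67) and Gbp9 (6.75). Windows of 36 or 75 bases, chosen after seeing the data, gave shared shares of 3.30% and 0.873% for Gbp2b. No paired analysis was possible because the table holds no values per animal, and for the same reason no replicate could be left out. The unknown depth limits every level, most of all that of Ifi44l in Pkd2-KO.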
